A study of Mus musculus with 6 samples.

Results

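The 9 genes described here are the zinc finger activators Egr1, Egr2 and Egr3, the orphan nuclear receptors Nr4a1, Nr4a2 and Nr4a3, the serum response factor gene Srf, and the corepressor genes Nab1 and Nab2. They were taken by symbol from a proposal, and all 9 were found among the 45320 Ensembl identifiers of the deposited tables. The material is total RNA of whole brown adipose tissue from C57BL/6 mice, all of which were put on a calorie-rich diet with much sugar and fat when 4 weeks old and kept on it for 4 weeks before the groups were formed. The treated group then had RO5508887, an experimental small-molecule BACE1 inhibitor, added to that diet (samples 17, 33 and 35), and the untreated group continued on the diet alone (samples 13, 14 and 15). Samples 33 and 35 were deposited with identical values for all 45320 identifiers and were counted as 1 library, treated 33/35, which left 2 treated and 3 untreated libraries. No genetic change, dose or duration of the drug, nor whether each sample was 1 mouse or a pool, is stated in the labels, so errors describe the spread between these libraries, which may be technical. The genes were chosen by their FPKM in these same treated and untreated libraries, where immediate early genes had been seen to be higher after treatment. The values of the groups are therefore a description, and nothing is read from the limma p values given for these genes.

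Immediate early genes are switched on quickly after a stimulus by factors that the cell already holds. Serum response factor sits on CArG boxes with ERK-activated partners of the ELK family, while CREB, activated by cyclic AMP, binds cyclic AMP response elements. Both routes reach the EGR and NR4A genes, and in brown fat the NR4A receptors are known to be induced by adrenergic signals. EGR proteins then bind GC-rich sites in other genes, and the NAB proteins dock on them and repress, a brake that EGR activity itself feeds through Nab2. NR4A receptors have no known hormone ligand, and their activity was not measured here.

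The libraries were uneven in tissue content before any group was compared. Brown adipocyte genes were present in each one: Ucp1, the uncoupling protein that defines brown fat, measured 1119 and 1321 FPKM in treated 17 and treated 33/35, and 1837, 227 and 1912 FPKM in untreated 13, 14 and 15. FPKM are fragment counts scaled to transcript length and to the sequencing depth of the library. The 18 matched skeletal muscle markers summed to 12394 and 5317 FPKM in treated 17 and treated 33/35, and to 39.3, 28173 and 28.4 FPKM in untreated 13, 14 and 15, and 17 of them were highest in untreated 14. The other one, Myh4, was listed at 0 in both treated libraries and in untreated 14. Endothelial markers summed to 353 and 412 FPKM in treated tissue, against 345, 278 and 336 FPKM in untreated tissue, macrophage markers to 181 and 228 against 218, 241 and 143 FPKM, and mast cell markers to 30.7 and 25.7 against 17.2, 22.3 and 7.23 FPKM. Cpa3, the mast cell carboxypeptidase, measured 5.16 and 4.00 FPKM in treated tissue, against 2.57, 3.56 and 0.938 FPKM in untreated tissue. The mast cell sums therefore did not overlap between the groups, and their part in the results below was not tested. In whole tissue, fewer cells of a type and less RNA per cell cannot be told apart.

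The 3 EGR genes were each higher in both treated libraries than in any untreated library. Egr1 (chromosome 18, 34859823 to 34864984, GRCm38) stood at 20.3 and 39.6 FPKM in treated 17 and treated 33/35, against 4.26, 5.07 and 3.82 FPKM in untreated 13, 14 and 15. The untreated libraries lay close together, whereas the treated pair differed by nearly as much again as the lower treated value. The group means were 29.9 ± 13.7 FPKM (SD, n = 2) in treated and 4.38 ± 0.635 FPKM (SD, n = 3) in untreated tissue, a ratio of 6.82. On the log2(FPKM + 0.5) scale, which understates the change of low genes, the treated minus untreated difference of Egr1 was 2.57 (SE 0.33 from limma). Egr1 stood at the 82.0 and 90.2 percentile of the genes above 0 in the treated libraries, and between the 54.7 and 58.3 percentile in the untreated ones.

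Egr2 and Egr3, paralogs with the same DNA-binding fingers, had the same shape at a lower level. Egr2 (chromosome 10, 67535475 to 67542188) measured 2.84 and 3.69 FPKM in treated 17 and treated 33/35, against 0.537, 0.663 and 0.239 FPKM in untreated 13, 14 and 15. Egr3 (chromosome 14, 70077203 to 70082614) measured 2.57 and 4.48 FPKM in the treated libraries, against 0.424, 0.522 and 0.296 FPKM in the untreated ones in the same order. Neither gene had overlapping groups, and treated 33/35 was the higher treated library for all 3 EGR genes. The ratios of group means were 6.81 for Egr2 and 8.51 for Egr3, and the log2 differences were 1.96 (SE 0.31) and 2.10 (SE 0.32). Both genes reached the filter of a mean of 1 FPKM through the treated libraries, since their untreated means were 0.480 and 0.414 FPKM. By the length of the longest coding transcript, the untreated values of Egr2 rested on about 15 to 37 fragments a library and those of Egr3 on about 24 to 39. By that of the shortest coding transcript, they rested on about 2 to 4 for Egr2 and 9 to 15 for Egr3.

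The proportions within the EGR family varied less than the levels. Egr1 supplied 78.9% and 82.9% of the summed EGR FPKM in treated 17 and treated 33/35, against 81.6%, 81.0% and 87.7% in untreated 13, 14 and 15. Egr1 was 7.88 and 8.82 times as abundant per length as Egr3 in the treated libraries and 10.1, 9.70 and 12.9 times in the untreated ones. Among the untreated libraries the 3 EGR genes ran from untreated 14 through untreated 13 to untreated 15, as the summed muscle markers did. Untreated 14, with the most muscle transcripts of all 5 libraries, had EGR values below those of both treated libraries. With the mean log2 level of the muscle markers as a covariate, the log2 differences of Egr1, Egr2 and Egr3 were 2.48, 1.78 and 2.02. With the summed FPKM of these markers as the covariate they were 2.57, 1.97 and 2.11. These fits rest on 5 libraries with 2 residual degrees of freedom and are a description. The part of muscle content in the EGR values was not tested.

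**Figure D1:**
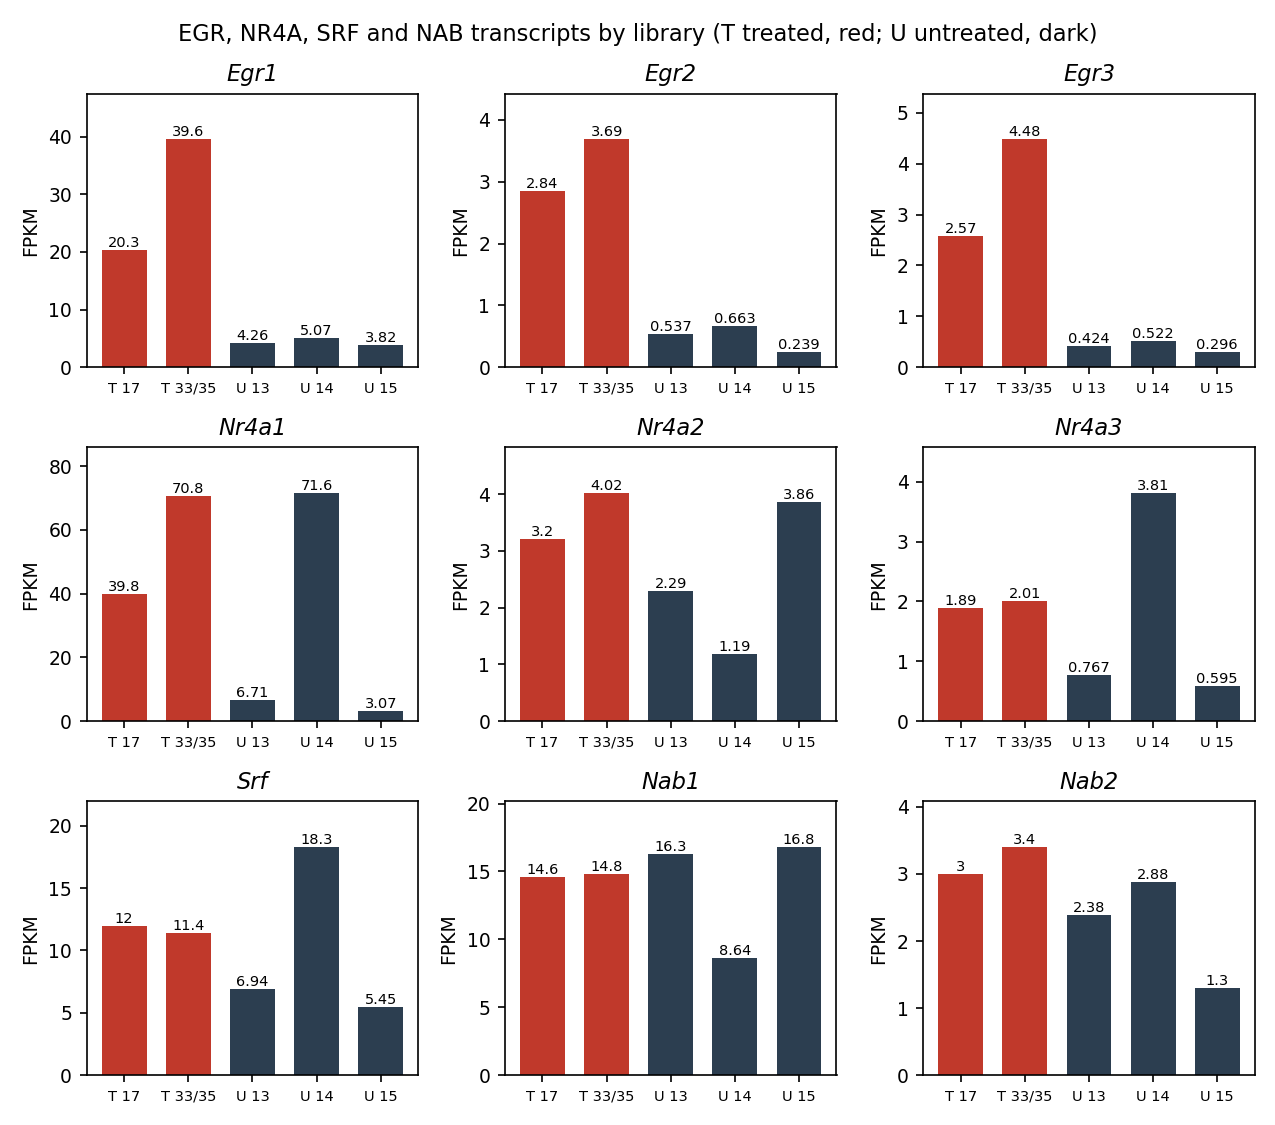
FPKM of each of the 9 genes (vertical axes, from 0) in the 2 treated libraries (red, left) and the 3 untreated libraries (dark, right), with 1 bar a library. Egr1, Egr2 and Egr3 are high in both red bars alone, whereas Nr4a1, Nr4a3 and Srf are highest in untreated 14 and Nab1 is lowest there.

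Promoter windows, 250 bases before to 50 after a transcription start, were matched for 7 of the 9 genes from RefSeq on GRCm38.p6, all but Egr1 and Egr3. Egr2 has 5 listed starts, and the window at chr10:67537619-67537918 (+ strand) is shown because it holds the CArG box, the site that serum response factor is known to bind, here in capitals and beginning 72 bases before the start.
Egr2: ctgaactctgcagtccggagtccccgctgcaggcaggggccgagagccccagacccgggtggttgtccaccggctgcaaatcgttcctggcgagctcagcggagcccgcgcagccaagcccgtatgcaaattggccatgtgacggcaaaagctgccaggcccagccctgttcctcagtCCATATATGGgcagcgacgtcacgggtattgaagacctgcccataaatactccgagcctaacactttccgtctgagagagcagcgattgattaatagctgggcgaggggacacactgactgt
A CArG box was held by 4 of the 5 Egr2 windows, but those starting at 67537619, 67537620 and 67537680 overlap and hold the same box. Of the 32851 mouse promoter windows of this length, 1.63% held a CArG box. The window shown also holds 2 cyclic AMP response element cores, TGACG on either strand. A match of letters is a description and shows no binding.

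The NAB corepressors differed far less between the libraries than the EGR activators they restrain. Nab1 (chromosome 1, 52457294 to 52500679) measured 14.6 and 14.8 FPKM in treated 17 and treated 33/35, against 16.3, 8.64 and 16.8 FPKM in untreated 13, 14 and 15. The treated values lay inside the untreated range, and untreated 14 was the only library clearly below the others. The log2 difference was 0.13 (SE 0.33) and turned to -0.17 (SE 0.0931) without untreated 14. It was 0.27 without untreated 13 and 0.29 without untreated 15. With the mean log2 level of the muscle markers as a covariate it was 0.54 (SE 0.11), and with their summed FPKM 0.12 (SE 0.10). Nab2 (chromosome 10, 127660918 to 127668568) measured 3.003 and 3.40 FPKM in the treated libraries, against 2.38, 2.88 and 1.30 FPKM in the untreated ones. Both treated values were above all untreated ones, though treated 17 and untreated 14 lay close together and changed order when libraries were scaled to equal medians. The log2 difference of Nab2 was 0.51 (SE 0.33), and it was 0.24 (SE 0.21) without untreated 15. It was 0.25 (SE 0.29) with the mean log2 muscle covariate and 0.52 (SE 0.26) with the summed FPKM covariate.

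The value of Nab2 is uncertain because 1050 of its 2941 exonic bases also belong to Gm16229, an antisense gene on the other strand. Gm16229 measured 2.90 and 3.75 FPKM in treated 17 and treated 33/35, against 2.22, 3.02 and 1.57 FPKM in untreated 13, 14 and 15, close to Nab2 in each library. Whether the counting used strand is not given in the sources used here, so reads of the pair cannot be told apart. Stat6 and Nemp1 share 40 and 151 further exonic bases with Nab2 from the opposite strand. Srf shares no exonic base with another annotated gene, and for the other 7 genes no overlapping gene is annotated.

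The summed FPKM of the 3 EGR genes was 25.7 and 47.7 in treated 17 and treated 33/35, against 5.22, 6.25 and 4.35 in untreated 13, 14 and 15. The summed FPKM of Nab1 and Nab2 was 17.6 and 18.2 in the treated libraries, against 18.7, 11.5 and 18.1 in the untreated ones. EGR transcripts thus outnumbered NAB transcripts per length in both treated libraries, by 1.46 and 2.62 to 1, and were fewer in all untreated ones, at 0.280, 0.543 and 0.240 to 1. The EGR to NAB balance, the mean log2 value of Egr1 and Egr3 minus that of Nab1 and Nab2, was 0.14 and 0.87 in the treated libraries and -1.73, -1.22 and -1.59 in the untreated ones. Its group means were 0.50 ± 0.52 (SD, n = 2) and -1.51 ± 0.26 (SD, n = 3), a difference of 2.02. Nab1 was the more abundant corepressor in every library, 4.85 and 4.36 times Nab2 in the treated ones and 6.83, 3.01 and 12.9 times in untreated 13, 14 and 15.

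**Figure D2:**
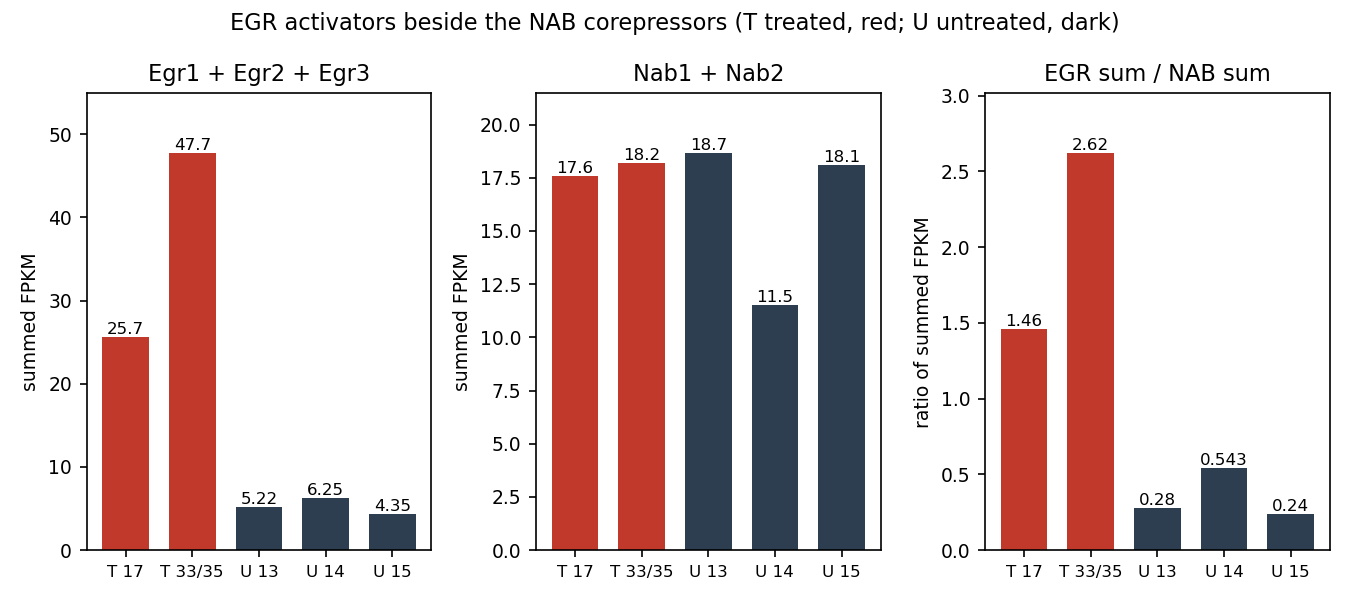
Summed FPKM of Egr1, Egr2 and Egr3 (left), summed FPKM of Nab1 and Nab2 (middle) and their ratio (right) in the 2 treated libraries (red) and the 3 untreated libraries (dark). The ratio is above 1 in both treated libraries, at 1.46 and 2.62, and at most 0.543 in the untreated ones.

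The Nab1 window at chr1:52500399-52500698 (- strand) is shown because it holds 3 EGR sites, GCGNGGGCG on either strand, which are in capitals and begin 141, 109 and 38 bases before the start.
Nab1: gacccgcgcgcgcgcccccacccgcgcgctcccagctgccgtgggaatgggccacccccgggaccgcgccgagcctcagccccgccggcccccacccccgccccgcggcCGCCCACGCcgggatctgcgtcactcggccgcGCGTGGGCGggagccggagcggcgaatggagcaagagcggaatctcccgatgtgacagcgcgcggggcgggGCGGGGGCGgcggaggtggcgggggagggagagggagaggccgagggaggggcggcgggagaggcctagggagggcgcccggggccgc
At least 1 such site was found in 5.55% of all promoter windows and at least 3 in 0.195%, the limit of 3 being the number found here. The Nab1 window is 81.7% G and C, and the share over all windows was not matched for this. The Nab2 window held none of the motifs searched. Egr1 was 1.39 and 2.67 times as abundant per length as Nab1 in treated 17 and treated 33/35, against 0.262, 0.587 and 0.227 times in untreated 13, 14 and 15.

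The NR4A receptors did not separate the groups. Nr4a1 (Nur77; chromosome 15, 101254269 to 101274795) measured 39.8 and 70.8 FPKM in treated 17 and treated 33/35, against 6.71, 71.6 and 3.07 FPKM in untreated 13, 14 and 15. The highest value of all was that of untreated 14, so the groups overlapped, and the highest library exceeded the lowest 23.3-fold, the widest range of the 9 genes. The group means were 55.3 ± 21.9 FPKM (SD, n = 2) in treated and 27.1 ± 38.5 FPKM (SD, n = 3) in untreated tissue, with a log2 difference of 2.12 (SE 1.37), which was 3.40 (SE 0.46) without untreated 14 and 1.23 (SE 1.28) without untreated 15. With the mean log2 muscle covariate it was 0.42 (SE 0.57), and with the summed FPKM covariate 2.19 (SE 0.62).

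Nr4a3 (Nor1; chromosome 4, 48045153 to 48086447) ordered the libraries as Nr4a1 did, with 1.89 and 2.01 FPKM in treated 17 and treated 33/35, against 0.767, 3.81 and 0.595 FPKM in untreated 13, 14 and 15. Untreated 14 stood above its treated pair and untreated 13 and 15 below. The log2 difference was 0.43 (SE 0.67), and 0.17, 1.06 and 0.068 without untreated 13, 14 and 15 in turn. It was -0.41 with the mean log2 muscle covariate and 0.47 with the summed FPKM covariate. Nr4a2 (Nurr1; chromosome 2, 57106830 to 57124003) behaved differently, with 3.20 and 4.02 FPKM in the treated libraries, against 2.29, 1.19 and 3.86 FPKM in the untreated ones. It was lowest in untreated 14, the library where the other NR4A genes were highest, and its groups overlapped. The log2 difference of Nr4a2 was 0.58 (SE 0.44), and it was 0.23 without untreated 14 and 0.92 without untreated 15. It was 1.07 with the mean log2 muscle covariate and 0.56 with the summed FPKM covariate. Nr4a1 made up 88.6% and 92.2% of the summed NR4A FPKM in treated 17 and treated 33/35, against 68.7%, 93.5% and 40.8% in untreated 13, 14 and 15. In untreated 15 Nr4a2 was therefore the more abundant of the pair, with 3.86 FPKM beside 3.07 FPKM of Nr4a1.

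Nr4a1 and Egr1 parted company in untreated 14. Per length, Nr4a1 was 1.96 and 1.79 times as abundant as Egr1 in treated 17 and treated 33/35, against 1.57, 14.1 and 0.806 times in untreated 13, 14 and 15. Treated 33/35 and untreated 14 had nearly the same Nr4a1 value, 70.8 and 71.6 FPKM, and Egr1 values of 39.6 and 5.07 FPKM.

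The NR4A windows are shown because each holds 4 cyclic AMP response element cores, TGACG on either strand, which are in capitals: Nr4a1 at chr15:101266596-101266895 (+ strand), Nr4a2 at chr2:57123954-57124253 (- strand) and Nr4a3 at chr4:48045055-48045354 (+ strand).
Nr4a1: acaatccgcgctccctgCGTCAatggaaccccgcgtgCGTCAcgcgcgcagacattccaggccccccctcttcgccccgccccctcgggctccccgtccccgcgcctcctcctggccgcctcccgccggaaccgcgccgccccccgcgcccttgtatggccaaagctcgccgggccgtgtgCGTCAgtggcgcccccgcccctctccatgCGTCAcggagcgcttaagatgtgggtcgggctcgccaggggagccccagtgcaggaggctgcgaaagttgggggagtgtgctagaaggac
Nr4a2: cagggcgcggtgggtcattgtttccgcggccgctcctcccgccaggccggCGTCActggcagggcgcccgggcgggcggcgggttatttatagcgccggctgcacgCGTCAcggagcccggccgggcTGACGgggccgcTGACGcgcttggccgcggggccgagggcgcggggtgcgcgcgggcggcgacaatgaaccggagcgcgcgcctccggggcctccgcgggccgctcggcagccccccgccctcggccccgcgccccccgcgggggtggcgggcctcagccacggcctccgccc
Nr4a3: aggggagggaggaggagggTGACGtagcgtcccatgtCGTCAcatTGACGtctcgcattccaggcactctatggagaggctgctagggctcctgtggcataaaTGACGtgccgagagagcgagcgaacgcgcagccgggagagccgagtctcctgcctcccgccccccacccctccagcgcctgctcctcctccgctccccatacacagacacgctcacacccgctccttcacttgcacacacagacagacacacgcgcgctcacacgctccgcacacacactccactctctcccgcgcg
At least 1 core was found in 20.8% of all windows and at least 4 in 0.231%, which was 76 windows; the limit of 4 was chosen after the matches were seen. The cores begin 233, 213, 69 and 40 bases before the start in Nr4a1, 200, 144, 123 and 111 in Nr4a2, and 231, 213, 205 and 147 in Nr4a3. None of these windows held the full element TGACGTCA, found in 1.79% of all windows, a CArG box, or the NR4A binding site AAAGGTCA, found in 1.51%.

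Srf, whose product binds CArG boxes as a dimer, was also highest in untreated 14. Srf (chromosome 17, 46548329 to 46556175) measured 12.0 and 11.4 FPKM in treated 17 and treated 33/35, against 6.94, 18.3 and 5.45 FPKM in untreated 13, 14 and 15. Untreated 14 stood above the treated pair and untreated 13 and 15 below. The log2 difference was 0.38 (SE 0.54), and it was 0.21, 0.87 and 0.045 without untreated 13, 14 and 15 in turn. It was -0.31 with the mean log2 muscle covariate and 0.40 with the summed FPKM covariate. Its window at chr17:46556113-46556412 (- strand) is shown because it holds a pair of CArG boxes, in capitals, which begin 82 and 62 bases before the start.
Srf: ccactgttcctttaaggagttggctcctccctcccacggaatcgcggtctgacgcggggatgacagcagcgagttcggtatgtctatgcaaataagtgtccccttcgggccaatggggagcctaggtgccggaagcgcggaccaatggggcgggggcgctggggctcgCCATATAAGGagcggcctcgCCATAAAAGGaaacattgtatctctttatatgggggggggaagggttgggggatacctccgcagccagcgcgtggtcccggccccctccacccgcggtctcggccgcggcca
At least 2 CArG boxes were held by 0.0183% of all windows, or 6, the limit of 2 being the number found here. Serum response factor is known to act on its own gene.

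The order of the libraries set the genes apart in groups, which were noticed after the values were seen. Egr1, Egr2, Egr3 and Nab2 shared 1 order, from treated 33/35 through treated 17, untreated 14 and untreated 13 down to untreated 15, an order held by 82 of the 13527 genes tested (0.606%). Both treated libraries came first in 744 tested genes (5.50%). The EGR genes were chosen by that contrast, so nothing is read from the share of all genes. Nr4a1 and Nr4a3 shared another order, with untreated 14 first and then treated 33/35 and treated 17, as did 438 genes (3.24%). Srf had the order untreated 14, treated 17, treated 33/35, untreated 13, untreated 15, as did 1081 genes (7.99%) and 14 of the 17 muscle markers tested. Nab1 had the reverse of the Srf order, as did 643 genes (4.75%) and 4 of the 11 brown adipocyte markers. The Srf order is also that of the summed muscle markers, and Nab1 has its reverse, while Nr4a1 and Nr4a3 differ from it by the places of the treated pair. The fits with a muscle covariate are a description, and the part of muscle content in these values was not tested. Neighbouring libraries in these orders can be close, as treated 17 and treated 33/35 were for Srf (12.0 and 11.4 FPKM) and Nab1 (14.6 and 14.8 FPKM). Treated 17 and untreated 14 were close for Nab2 (3.003 and 2.88 FPKM), and changed order when libraries were scaled to equal medians.

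**Figure D3:**
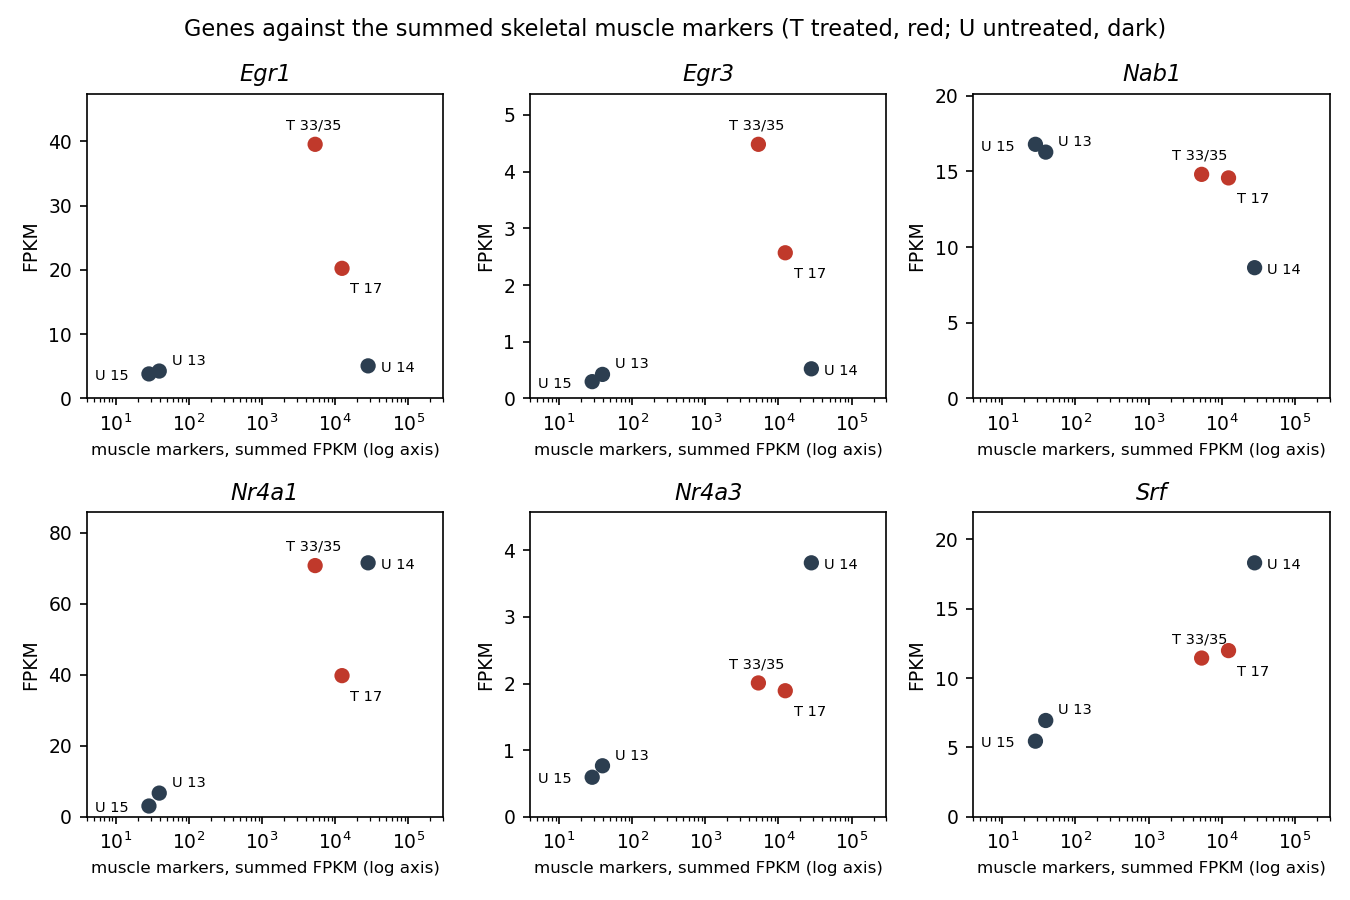
FPKM of Egr1, Egr3, Nab1, Nr4a1, Nr4a3 and Srf (vertical axes) against the summed FPKM of 18 skeletal muscle markers (horizontal log axis) in the treated (red) and untreated (dark) libraries, 1 point a library. Untreated 14, farthest right, is low for Egr1 and Egr3 (5.07 and 0.522 FPKM), lowest for Nab1 and highest for Nr4a1, Nr4a3 and Srf.

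Across the whole contrast, all 9 genes had a higher treated mean on the log2 scale, with a median difference of 0.58 beside 0.06 over the 13527 tested genes. All 9 passed the filter of a mean of 1 FPKM. In the limma fit over all genes with Benjamini-Hochberg adjustment, 0 of the 9 reached an adjusted p under 0.05, the lowest being 0.777 for Egr1, where 0.0444% of tested genes did, 0.0296% higher and 0.0148% lower. Egr1, Egr2 and Egr3 had an unadjusted p under 0.05, as did 0.924% of tested genes in either direction and 0.761% in the higher one. In 4 of the 9, the EGR genes and Nab2, both treated libraries lay above all untreated ones, where 5.50% of tested genes did and a further 3.18% lay below. With libraries scaled to equal medians 3 of the 9, the EGR genes, lay above all untreated libraries, and the background counts changed from 744 above and 430 below to 301 above and 1579 below. That scaling moved the median difference of all genes from 0.06 to -0.051, and none of the 9 differences changed sign under it, under quantile normalization or after removal of mitochondrial genes from the total. With the mean log2 level of the muscle markers as a covariate 4 of the 9 passed the adjusted threshold, in a fit where 15.5% of tested genes did, and with their summed FPKM 1 passed, where 1.83% did. Since the genes were chosen by this contrast, nothing is read from these counts.

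**Figure D4:**
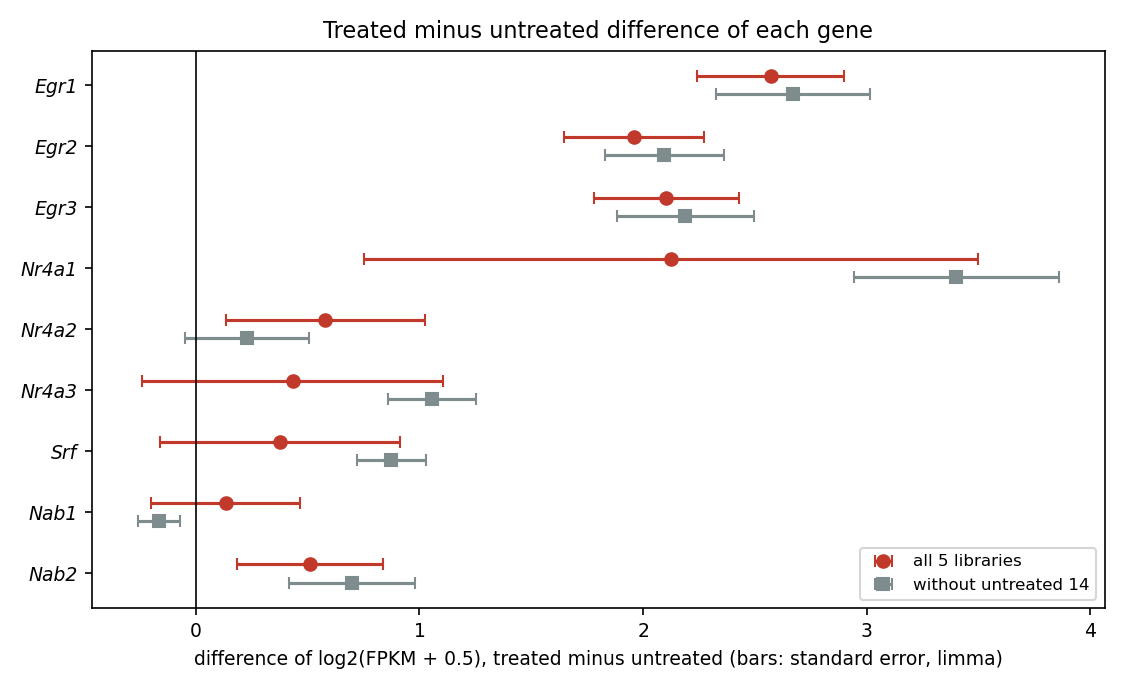
Treated minus untreated difference of log2(FPKM + 0.5) for each gene (horizontal axis; bars are standard errors from limma), from all 5 libraries (red circles) and without untreated 14 (grey squares). The EGR differences stay between 1.96 and 2.67, whereas Nr4a1 goes from 2.12 to 3.40 and Nab1 from 0.13 to -0.17.

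The partners and upstream genes of these factors had median differences near that of all tested genes, and 0 passed at an adjusted p under 0.05 in limma. With the mean log2 muscle covariate, where 15.5% of tested genes passed, 1 ERK pathway gene and 2 CREB family genes did. Of the ternary complex and MRTF partners of SRF, 5 of 6 were tested, with a median log2 difference of -0.0095 and 0 with an unadjusted p under 0.05. Elk3, a ternary complex factor, measured 9.64 and 10.7 FPKM in treated 17 and treated 33/35, against 9.09, 9.61 and 10.2 FPKM in untreated 13, 14 and 15. Mrtfb, a coactivator that carries actin signals to SRF, measured 5.47 and 5.64 against 5.37, 8.01 and 5.06 FPKM. The 14 genes of the ERK pathway had a median of 0.06 and 0 with an unadjusted p under 0.05. Of these, Nras, a RAS GTPase, measured 14.5 and 13.7 FPKM in treated 17 and treated 33/35, against 13.0, 13.1 and 12.9 FPKM in the untreated libraries, and Rps6ka5, a kinase that phosphorylates CREB, 4.95 and 5.68 against 3.33, 5.51 and 4.66 FPKM. The 12 CREB family and coactivator genes had a median of 0.09 and also 0 with an unadjusted p under 0.05. Crtc3, a CREB coactivator, measured 4.45 and 5.21 FPKM in the treated libraries, against 4.10, 4.01 and 4.11 FPKM in the untreated ones, and Ep300, an acetyltransferase, 12.4 and 12.7 against 11.2, 11.7 and 11.5 FPKM.

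Genes downstream were mixed. With the mean log2 muscle covariate 3 of the 12 EGR partners and targets tested passed the adjusted threshold, where 15.5% of tested genes did. With the summed FPKM covariate 1 of the 15 SRF targets and 1 of the EGR list passed, where 1.83% did. These counts cover both directions. Among 15 other SRF targets the median log2 difference was 0.13, with 0 past the adjusted threshold and 1 with an unadjusted p under 0.05. That one was Actg1, a cytoplasmic actin, at 262 and 297 FPKM in treated 17 and treated 33/35, against 219, 199 and 175 FPKM in untreated 13, 14 and 15. Ccn1, a matrix protein induced by serum, measured 30.7 and 47.5 FPKM in the treated libraries, against 10.3, 29.0 and 11.6 FPKM in the untreated ones. Of the 15 SRF targets, 12 were highest in untreated 14, as Srf was, and 1 was lowest there. Both treated libraries lay above all untreated ones for 3, among them Actg1 and Ccn1, and below for 1. The shares over all tested genes were 5.50% and 3.18%. Of 15 EGR partners and known targets, 12 were tested, with a median of 0.03 and 0 below an unadjusted p of 0.05. Hmox1, which degrades haem, measured 8.08 and 7.46 FPKM in treated 17 and treated 33/35, against 9.98, 15.9 and 8.22 FPKM in untreated 13, 14 and 15. The paralog Egr4 was listed at 0 in 4 libraries and at 0.02 FPKM in treated 33/35. Of the 10 NR4A partners and coregulators, 0 had an unadjusted p under 0.05, with a median of 0.06. Ncor1, a nuclear receptor corepressor, measured 49.5 and 59.4 FPKM in the treated libraries, against 47.3, 51.9 and 53.2 FPKM in the untreated ones, and the coactivator Ncoa1 9.06 and 9.59 against 9.72, 7.08 and 9.50 FPKM.

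Many other immediate early genes were, like the EGR genes, higher in both treated libraries. Of 30 listed, 25 were tested. Both treated libraries lay above all untreated ones for 18 of them, where 5.50% of tested genes did. The adjusted threshold was passed by 0 of them, where 0.0444% of tested genes passed. An unadjusted p under 0.05 in limma was found for 15, and for 0.924% of tested genes. Without untreated 14, 2 passed the adjusted threshold, where 0.843% of tested genes did, and with the mean log2 muscle covariate 9 passed, where 15.5% did. Their median log2 difference was 0.75, and their list, like the 9 genes, was drawn up with these results known. Fosb, a subunit of AP-1, measured 21.1 and 18.7 FPKM in treated 17 and treated 33/35, against 1.42, 1.21 and 0.744 FPKM in untreated 13, 14 and 15. Klf2, a Kruppel-like factor, measured 36.3 and 46.4 against 13.9, 10.5 and 11.9 FPKM. The 10 heat shock genes, which handling of tissue can induce, had a median of -0.12 and ran from -0.93 to 0.65. Their treated mean on the log2 scale was higher for 4 and lower for 6. In limma 0 passed the adjusted threshold and 0 had an unadjusted p under 0.05. With the mean log2 muscle covariate 3 passed, where 15.5% of tested genes did. The part of handling in these values was not tested. For 3 of the 10 heat shock genes both treated libraries lay below all untreated ones, where 3.18% of tested genes did (1579 of 13527 after median scaling). Among these 3 were Hsph1 with 23.8 and 24.0 against 77.8, 34.3 and 36.3 FPKM and Hspb1 with 138 and 113 against 184, 263 and 142 FPKM.

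The profiles most like those of Egr1 and Nr4a1 were sought among 11674 other protein-coding genes, by the Euclidean distance between mean-centred log2 values over the 5 libraries. Egr3 and Egr2 were at 0.54 and 0.84 from Egr1, nearer than any of these. The nearest 4 outside the family were Klf2 at 1.12, Ptger4, a prostaglandin E receptor, at 1.24, Bcl6b, a transcriptional repressor, at 1.35 and Plk3, a polo-like kinase, at 1.45. Ptger4 measured 2.75 and 6.26 FPKM in treated 17 and treated 33/35, against 1.28, 1.37 and 1.05 FPKM in untreated 13, 14 and 15. Around Nr4a1 the nearest were Thbs4, a thrombospondin, at 0.73, Myl10, a myosin light chain, at 1.57, Cilp, a matrix protein of cartilage, at 1.57 and Podxl2 at 1.62, all nearer than Nr4a3 at 2.57. Thbs4 measured 8.23 and 7.87 FPKM in the treated libraries, against 0.467, 12.2 and 0.175 FPKM in the untreated ones, and Myl10 was listed at 0 in untreated 13 and 15.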

How the data were processed

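Each of the 6 deposited tables gives FPKM per Ensembl gene as computed by the authors, per the file headers. CASAVA 1.7 and the GRCm38 build are listed, without a role, per the submitters' processing notes; the aligner, quantification program, annotation and strand setting are not given in the sources used here. Libraries were made from Trizol-extracted total RNA, per the labels' protocols. GENCODE M21 supplied symbols and positions, with a match for 44395 identifiers.

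Values were compared as log2(FPKM + 0.5) for 13527 genes (mean across libraries 1 FPKM or more), with limma 3.58.1 in R 4.3.3 (empirical Bayes with a variance trend, two-sided, Benjamini-Hochberg adjustment over all tested genes), and the fit was checked on simulated data. Standard errors of log2 differences use the empirical Bayes variances and are from this fit unless another is named. This fit has 3 residual degrees of freedom, before those that empirical Bayes adds. The fits with a muscle covariate or with 1 library left out have 2.

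The files give no read totals. Among single-transcript genes of 2500 to 5000 bases, FPKM times length fell in steps, with 78.3% to 80.8% of low values within 0.1 of a whole multiple. The first step put the depth at about 23700000 and 22400000 fragments in treated 17 and treated 33/35, and 23400000, 18900000 and 20600000 in untreated 13, 14 and 15. Fragment numbers derived from it are estimates that assume the annotated length.

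The genes and the lists were chosen with earlier results of these data known. By rule, the 9 genes were named whatever their values, then the 2 genes of smallest p in each pathway list and the 4 nearest profiles to Egr1 and Nr4a1. Of these, 1 gene is not reported here. The first marker of a list (such as Ucp1 or Cpa3) was named beside a result. Gm16229, Stat6, Nemp1, Egr4 and Myh4 were named after their values were seen, as were the orders of libraries. Acta1 and Wdnm1 had no matching identifier among the markers. Marker lists of neutrophils, smooth muscle, nerve, white adipocytes, lymphocytes and red cells were prepared too, with 2, 8, 5, 5, 0 and 5 genes tested, of which 0 had an unadjusted p under 0.05 or an adjusted p under 0.05 in limma. Python 3.11.15, numpy 2.4.6, pandas 2.3.3 and matplotlib 3.10.9 were used for counts and plots. Alternatives covered pseudocount, filter, scaling, variance model, sample weights, duplicate tables, a muscle covariate and each library left out.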

Additional observations from a re-analysis of the deposited data

How the results depend on the processing

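No paired analysis was possible because the groups share no replicate number. Of 17 alternatives, 16 were listed in advance and the summed FPKM of the muscle markers as a covariate was added after the data were seen. The number of the 9 genes past an adjusted p under 0.05 (limma) was 0 in every alternative but the muscle covariates. With the mean log2 muscle covariate it was 4, Egr1 (adjusted p = 0.0230), Egr2 (0.0312), Egr3 (0.0307) and Nab1 (0.0387), in a fit that called 15.5% of all genes. With the summed FPKM covariate it was 1, Egr1 (adjusted p = 0.0431), in a fit that called 1.83%. The genes were chosen by this contrast, and Egr2 and Egr3 reached the filter of the mean only through the treated libraries. Nothing is therefore read from these p values. Both fits leave 2 residual degrees of freedom, and the adjusted p of Egr1 ranged from 0.0230 to 1 over the alternatives. The number of genes with both treated libraries above all untreated ones was 1 of 4 with a filter of 5 FPKM, where 391 of 9180 tested genes did. It was 4, 7 and 5 of the 9 without untreated 13, 14 and 15 in turn. Of all 13527 tested genes, 1634, 3421 and 1341 lay above in these fits, so the background rose as well. The median difference of the 9 genes was 1.25 with the 5 FPKM filter and 0.98 with sample weights, and 0.44 to 1.06 with a library left out (0.59 without untreated 13, 0.92 without untreated 15 and 1.06 without untreated 14). The EGR to NAB balance was 2.36 with a pseudocount of 0.1, and 1.65 (without treated 33/35) to 2.38 (without treated 17) with a library left out, and 1.91 without untreated 13. The cause of these changes was not tested, except that the 5 FPKM filter leaves fewer genes.

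The log2 difference changed sign for Nr4a3 (-0.41) and Srf (-0.31) with the mean log2 muscle covariate, and for Nab1 with sample weights (-0.14) and without untreated 14 (-0.17, against 0.29 without untreated 15). Among genes of the pathway lists it changed sign for Elk3 (-0.029 and -0.039) and Ncoa1 (-0.012 and -0.016) with quantile normalization and median scaling, for Nras (-0.0020) and Ncor1 (-0.016) with median scaling, for Mrtfb (0.058) and Ncoa1 (-0.037) with sample weights, for Mrtfb (0.084, against -0.22 without untreated 15) and Ncoa1 (-0.042, against 0.17 without untreated 13) without untreated 14, and for Ncor1 (-0.034) without treated 33/35. Fosb passed the adjusted threshold in limma in 7 of the 17 alternatives and not in 10. Its adjusted p was 0.0285 without untreated 14, 0.0417 with a pseudocount of 1, 0.0428 with quantile normalization and 0.0214 with sample weights. With the mean log2 and summed FPKM muscle covariates it was 0.011 and 0.00736. The lowest, 0.00419, came with both identical tables counted, which enters the same library again. It was 0.17 with a pseudocount of 0.1 and 0.465 with the 5 FPKM filter.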
